A study of Mus musculus with 4 samples.

Results

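Classical monocytes were picked out of single-cell transcriptomes of MT4788 mammary tumours by a rule on raw UMI (unique molecular identifier) counts, and 1087 of 26435 kept cells met it. A kept cell had at least 200 genes and under 20% mitochondrial UMIs. A member had at least 2 Ly6c2 UMIs, at least 1 UMI of Vcan, Ccr2 or Chil3, at least 1 of Csf1r or Cd68, and fewer than 5 of the 3 C1q genes. It also had no Cd3 and no Siglech UMI, fewer than 3 of Arg1, fewer than 2 of Ace, Treml4 and Cd300e together, and fewer than 3 of Retnla, Ear2, Lpl and Dcstamp together. Measured values therefore chose the members, and the levels of these 21 genes are given as a description only. The cell line is grown as a breast tumour in FVB mice of wild-type genotype, tumours were taken on day 4, and CD45+ cells were enriched with magnetic beads before 10000 cells per condition were loaded. Each of 4 libraries is 1 treatment: the control had saline and PBS, the phenformin library saline plus that drug, the poly I:C library that RNA plus PBS, and the combination both agents. The title names complex I inhibition and Toll-like receptor (TLR) activation in the tumour microenvironment as the question, and the labels give neither the dose nor the number of mice behind a library.

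Classical monocytes leave the bone marrow through the chemokine receptor CCR2 and enter inflamed tissue and tumours, where they can become macrophages or monocyte-derived dendritic cells. Ly6C, encoded in part by Ly6c2, marks them in the mouse and is lost as they mature. TLR3 and cytosolic sensors read poly I:C, a mimic of viral double-stranded RNA, and switch on type I interferon, while phenformin, a biguanide like metformin, blocks complex I in mitochondria.

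The control, phenformin, poly I:C and combination libraries held 280, 294, 301 and 212 members, with 2213893, 2656175, 2872741 and 1773731 UMIs in all. Their median depth was 7295, 8620, 9186 and 7751 UMIs per member. There was 1 library per treatment, so no replicate and no test between treatments: values are set side by side, and every 95% interval covers counting error only. Levels are in CPM (UMIs per 1000000 UMIs of the members' sum) and stand in the order control, phenformin, poly I:C and combination unless said otherwise. A gene is called higher or lower where its ratio reaches 1.5-fold and the interval of that ratio does not include 1. Between libraries, 70 barcodes of kept cells were shared, 4 members carried such a barcode, and no barcode was a member in more than 1 library.

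Some genes that the rule did not use fitted the name. Plac8, a protein abundant in circulating monocytes, stood at 4759, 3980.2, 3474 and 4885 CPM in the members and at 492, 421, 489 and 525 CPM in cells with at least 10 C1q UMIs (C1q macrophages). Hp, the gene of haptoglobin, was at 189, 142, 126 and 239.6 CPM against 7.94, 9.72, 15.8 and 12.1 CPM in the C1q macrophages. Both were more than 5-fold above the C1q macrophages in each library. The monocyte genes F13a1 and Fn1, given below, stood less than 5-fold above the C1q macrophages in each library. Plac8 did not set the members apart from non-classical monocytes, in which it was at 5616, 4009, 3498 and 7178 CPM. Thbs1 did, at 2147, 2326, 922 and 1000.1 CPM in the members and 729.6, 760.2, 219.5 and 396 CPM in non-classical monocytes. Non-classical monocytes, chosen by at least 2 UMIs of Ace, Treml4 and Cd300e, had more Nr4a1, the transcription factor that non-classical monocytes need, at 114, 105, 64.4 and 109 CPM against 26.6, 30.9, 11.1 and 20.9 in the members. Cd14, a lipopolysaccharide co-receptor, varied little in the members, at 3282, 3138, 3799.5 and 3312 CPM, and Lyz2, lysozyme of myeloid cells, was at 7835, 8305, 6217 and 7938 CPM. T cells, used here as a gauge of free RNA, were cells with at least 2 Cd3 UMIs and no Csf1r or Cd68 UMI. They held 47.1, 58.8, 93.5 and 81 CPM of Lyz2 and 34.8, 23.2, 42.8 and 38.9 of Cd14. Leaving out cells with a Csf1r or Cd68 UMI can favour those with little free myeloid RNA, so this gauge may read too low. The part of free RNA in the members' levels was not tested.

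**Figure D1:**
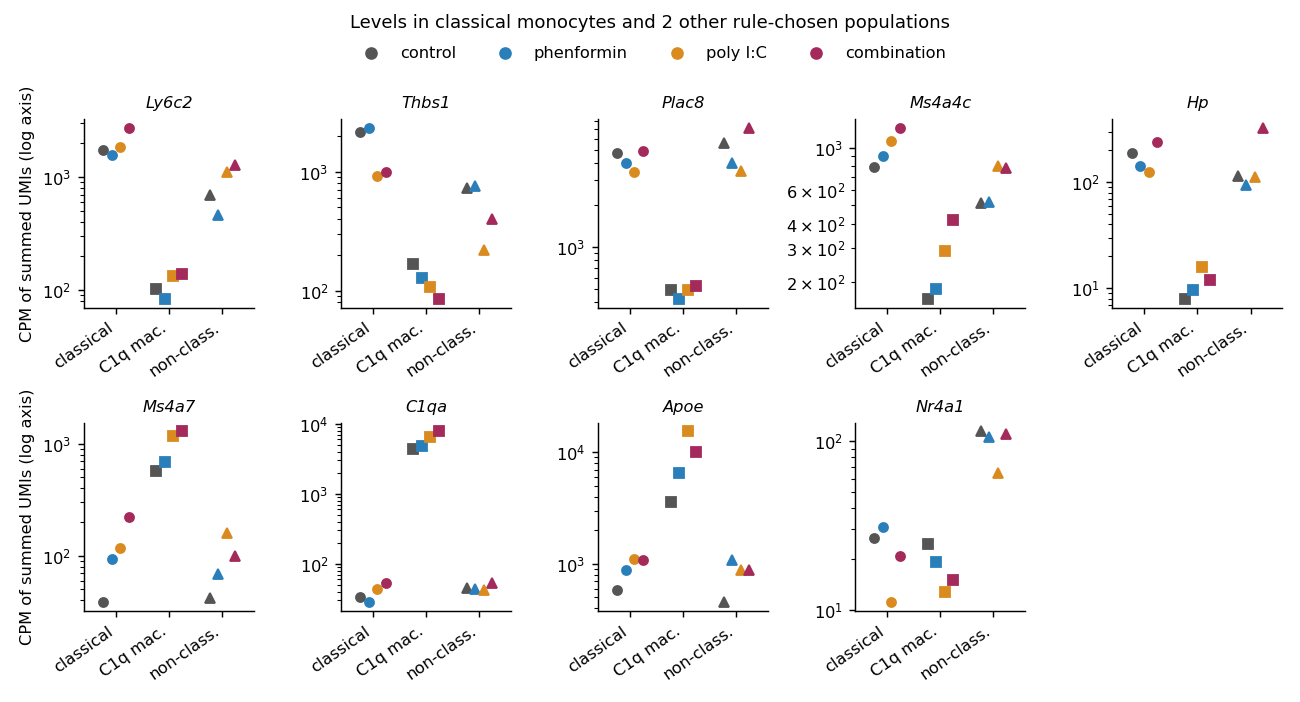
Levels in CPM on a log axis of 9 genes (panels) in the summed cells of classical monocytes, C1q macrophages and non-classical monocytes (x axis), with 1 point per library coloured by treatment. Ly6c2 and C1qa were used by the rule; Plac8 and Hp were not, and each stands above the C1q macrophages in all 4 libraries.

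Markers of other cell types were mostly near 0, with exceptions that bear on later values. All 3 Cd3 genes and Siglech were at 0 by the rule, and the T cell list summed to 14.9, 9.79, 12.2 and 26.5 CPM with 7, 6, 7 and 7 of 11 genes detected. The neutrophil list of 14 genes summed to 448, 413, 1044 and 5195 CPM, with Ngp at 0 in all libraries except the combination. Tumour epithelial genes summed to 215, 17.3, 167 and 282 CPM over 7 genes, with Krt19 at 0 throughout. The B cell list summed to 5.87, 10.5, 57.8 and 233 CPM over 6 genes, with Ms4a1 at 0 throughout. Where such genes led a comparison, they came from a few members each, as given below.

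The members themselves formed a range rather than a uniform set. The Ly6c2 count per member had a median of 10, 10.5, 13 and 16 UMIs, with quartiles of 4 to 18, 5 to 19, 6 to 24 and 7.75 to 34. At the edge of the rule, 45, 52, 21 and 10 cells met every other condition with exactly 1 Ly6c2 UMI, and 32, 23, 13 and 12 members had exactly 2. In the control library, cells just outside held 932 CPM of Thbs1 and 2683 CPM of Plac8, and members just inside held 933 and 2450.1. In the poly I:C library the cells just outside held 142 CPM of Thbs1 and the members just inside held none. No C1q UMI was found in 57.9, 58.5, 46.8 and 42% of members. A UMI of Cd209a, a lectin of monocyte-derived dendritic cells, was found in 3.93% of control and 5.78% of phenformin members, in none of the 301 poly I:C members and in 0.472% of combination members.

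Ordering cells by Ly6c2 showed which other genes went with it. For this description, cells that met the rest of the rule were thinned to 3000 UMIs and put into bands of 0 to 1, 2 to 4, and 5 or more Ly6c2 UMIs. The lowest band lies under the rule's limit for Ly6c2 and takes in many cells that are not members. These bands held 223, 81 and 120 cells in control, 156, 105 and 131 with poly I:C, and 80, 42 and 135 in the combination. Thbs1, which encodes the matrix protein thrombospondin 1, was at 746, 2317 and 3006 CPM over these bands in control and at 184, 619 and 1445 CPM with poly I:C. Thbs1 was thus higher with Ly6c2 in either library, and the poly I:C cells of every band lay below the control cells of the same band. The interferon regulator Irf7 was at 138, 181 and 275 CPM in control and 304, 659 and 1037 in the combination, so the highest band differed most between these libraries. Ifi27l2a, an interferon-induced gene, was at 1388, 3802 and 5383 CPM over the bands in the combination. Spp1, the secreted protein osteopontin of tumour macrophages, ran the other way, at 1500.0, 127 and 59.3 CPM in the combination, and the tetraspanin Cd63 was highest in the lowest band too, at 254, 37 and 66.7 CPM in control. H2-Ab1, a chain of an MHC class II molecule that presents antigen, had no such order: it was at 5738, 6136 and 5000.0 CPM in control and lower in each band of the combination, at 3304, 5103 and 2686 CPM.

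**Figure D2:**
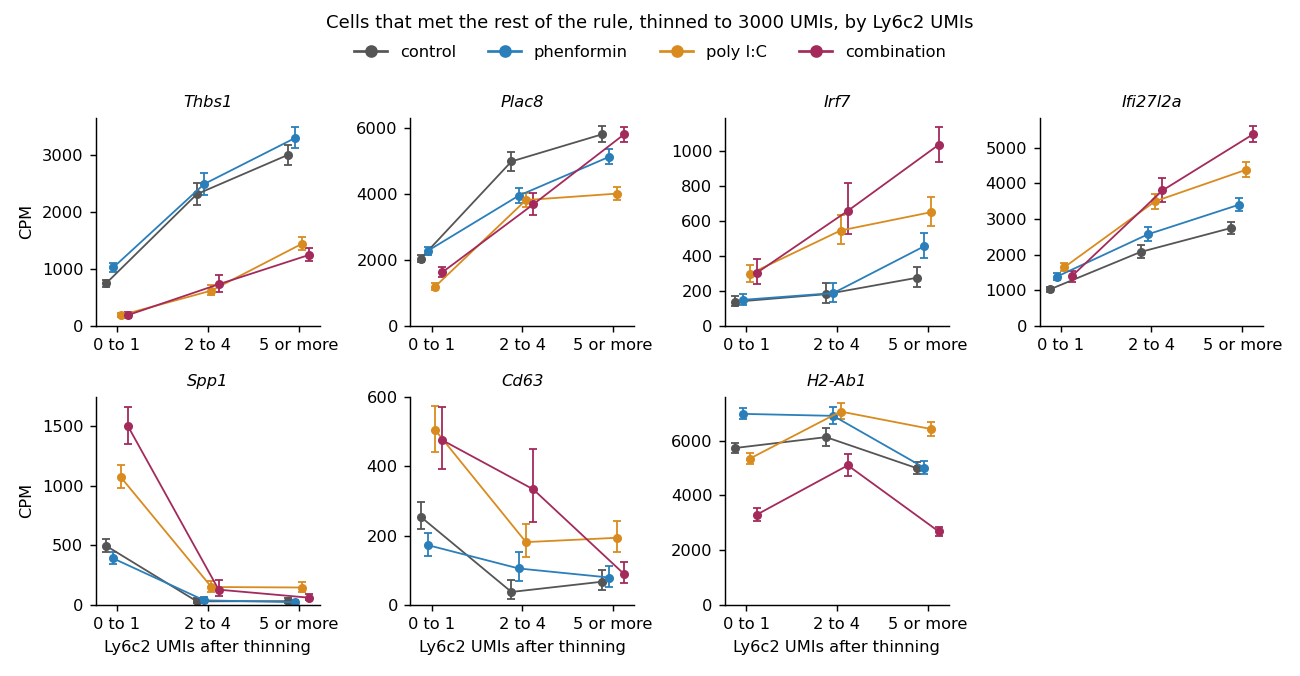
Level in CPM (y axis, linear, from 0) of 7 genes in cells that met the rest of the rule, thinned to 3000 UMIs, by Ly6c2 UMIs after thinning (x axis). Lines and points are the 4 libraries and bars are 95% counting intervals; Thbs1, Plac8, Irf7 and Ifi27l2a lie higher in the top band than in the lowest band in each library, Spp1 lower, and H2-Ab1 of the combination lies below the other libraries in every band.

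Classical monocytes were a smaller share of the recovered cells in the combination than in any other library. They made up 4.59% (4.08 to 5.15%, exact binomial) of control cells, 5.39% (4.81 to 6.02%) of phenformin cells, 4.55% (4.06 to 5.08%) of poly I:C cells and 2.56% (2.23 to 2.93%) of combination cells. The combination stood below the other 3 libraries, whose intervals overlapped one another. Of myeloid cells (a UMI of Csf1r or Cd68 and none of Cd3) they were 11.04% (9.84 to 12.3%), 11.3% (10.1 to 12.6%), 11.1% (9.91 to 12.3%) and 6.95% (6.07 to 7.91%), with the combination again the lowest. After each cell was thinned to 3000 UMIs, which left 4710, 4446, 5559 and 6192 cells, the shares were 3.93% (3.39 to 4.52%), 4.45% (3.87 to 5.1%), 3.78% (3.29 to 4.31%) and 2.83% (2.43 to 3.27%). C1q macrophages were 16.8, 20.1, 24.4 and 23.1% of kept cells, and non-classical monocytes 1.97, 1.6, 1.03 and 2.77%. The bead enrichment sets all of these shares in part, so none is a share of the tumour.

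**Figure D3:**
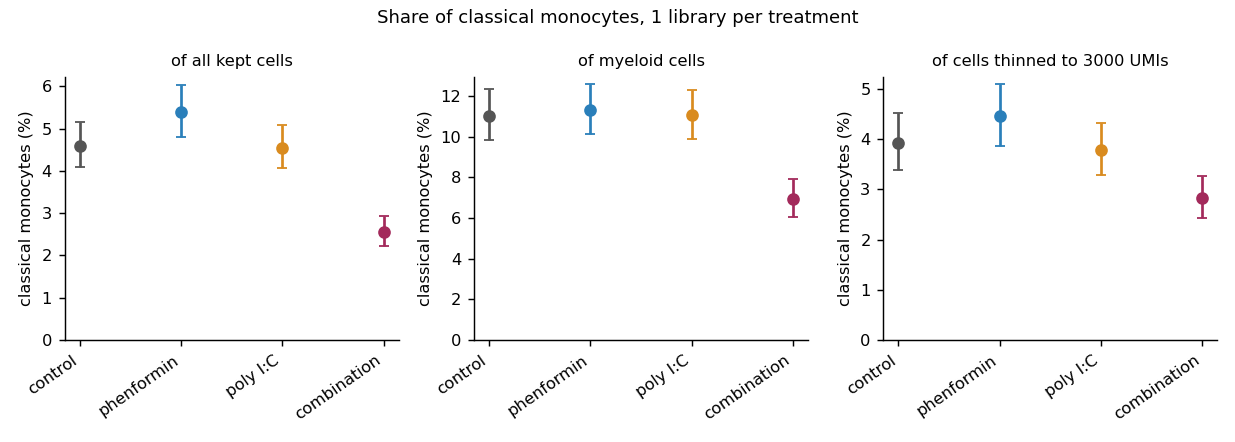
Share of classical monocytes in percent (y axis, from 0) in the 4 libraries (x axis), of all kept cells, of myeloid cells and of cells thinned to 3000 UMIs. Points are single libraries and bars are exact 95% binomial intervals; the combination, at 2.56%, 6.95% and 2.83%, is the lowest in each panel.

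Few genes differed with phenformin alone and many with poly I:C. Of 3135 genes compared between phenformin and control (at least 50 CPM and 30 UMIs in the higher library, the 21 rule genes left out), 5 were higher by 2-fold or more (0.159%) and 6 were lower by as much (0.191%) on the log2 scale with 5 CPM added. With the 1.5-fold call, 1.37% were higher and 0.925% lower. For poly I:C over control, 80 of 3197 were 2-fold higher (2.5%) and 53 lower (1.66%), and the 1.5-fold call took 6.38% and 12.1%. For the combination over control, 61 of 3226 were 2-fold higher (1.89%) and 44 lower (1.36%), and the 1.5-fold call took 7.13% and 9.27%. The median log2 ratio of all compared genes was -0.03 with phenformin, -0.11 with poly I:C and -0.06 in the combination. Scaling by TMM (trimmed mean of M values) moved the poly I:C median by 0.15 and changed its split to 95 higher and 33 lower, and that of the combination over poly I:C to 32 higher and 39 lower, and the mean of single-cell CPM gave 5 higher and 2 lower for phenformin. Thinning cells to 3000 UMIs before the rule gave 24 higher and 22 lower for phenformin, 114 and 137 for poly I:C, 98 and 116 for the combination over control, 50 and 68 over poly I:C, and 77 and 107 over phenformin. All comparisons over control share the control library, so their values are not independent.

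With phenformin alone, some chemokine and macrophage genes were higher, and no compared gene of the classical monocyte list was called. Of the monocyte chemokine list, 5 of 12 compared genes were higher and 1 lower, with a median log2 ratio of 0.42, against 1.37% and 0.925% of all genes. Ccl2, the ligand of CCR2, had the largest ratio of this comparison. It stood at 30.7, 213, 171 and 105 CPM, which for phenformin over control is a ratio of 6.95 (5.4 to 9.07). Ccl2 was carried by 21 of 280 control and 92 of 294 phenformin members, and without the richest member of each library the ratio was 8.22. Ccl24, an eosinophil attractant made by macrophages, was at 543, 1312, 385 and 85.7 CPM, with a ratio of 2.42 (2.26 to 2.58) for phenformin, and was then lowest in the combination. In C1q macrophages Ccl24 was at 2555, 2577, 205 and 87.7 CPM, level between control and phenformin there and far lower in both libraries with poly I:C. Cxcl9, an interferon-gamma-induced attractant of T cells, was at 774, 1328, 1573 and 732 CPM, a ratio of 1.72 (1.62 to 1.82) with phenformin. Ccl4, a chemokine of T cells and macrophages, was at 33, 90.4, 75.5 and 33.3 CPM, with 27.5% of the phenformin UMIs in 1 member, and T cells held more of it in every library.

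Other phenformin values concerned metal binding, survival and maturation. Mt1, a metallothionein that binds zinc and copper, was at 789, 1422, 892 and 706 CPM, a ratio of 1.8 (1.7 to 1.91), and was the highest in the phenformin library. Ms4a7, a membrane protein of tissue macrophages, was at 38.4, 94.5, 117 and 222 CPM and stepped up from control through phenformin and poly I:C to the combination. Bcl2a1b, an anti-apoptotic BCL2 relative with near-identical paralogs whose reads may be split, was at 187, 366, 676 and 453 CPM. Xylt1, which starts sugar chains on proteoglycans, was at 88.5, 47.4, 43.5 and 28.8 CPM, a ratio of 0.536 (0.425 to 0.674). It had the lowest ratio among genes that at least 20% of members carried in the higher library, a ranking chosen after the values were seen. Of the 4 genes that ranked lowest, Sox9, Krt5, Krt14 and Lgals7, each had UMIs in 15 or fewer control members, 1 of which held 73.7, 43, 45 and 50.8% of them. No list member of the classical monocyte list was called (0 higher and 0 lower of 21), nor any of 36 nuclear complex I genes, whose median log2 ratio was 0.12, or of 27 glycolysis and hypoxia genes, at 0.01. Among the rule genes, Ccr2 was at 427, 274, 86.3 and 184 CPM and Chil3, a secreted chitinase-like lectin, at 315, 706, 639 and 836 CPM. Both helped to choose the members, so these levels are a description only.

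With poly I:C alone, a part of the classical monocyte genes was lower. Of 21 compared genes of the classical monocyte list, 7 were lower and 1 higher, against 12.1% and 6.38% of all genes, with a median log2 ratio of 0.01. Thbs1 was at 2147, 2326, 922 and 1000.1 CPM, a ratio of 0.429 (0.409 to 0.45) for poly I:C and 0.466 (0.441 to 0.492) for the combination. Both libraries with poly I:C lay below both without it. F13a1, a clotting factor subunit that crosslinks fibrin, was at 148, 189, 82.8 and 90.8 CPM, and Fn1, the matrix protein fibronectin, at 324, 309, 151 and 153 CPM. Both showed the same split of the libraries as Thbs1. The wider coagulation and matrix list, which holds these 3 genes, did not go one way: 4 of 13 were higher and 3 lower, at a median log2 ratio of 0.39. In C1q macrophages Fn1 was at 186, 167, 89.2 and 61.3 CPM and F13a1 at 44.7, 134, 68.7 and 67.3. Ccr2, used by the rule and so given as a description only, was lowest with poly I:C, at 86.3 against 427 CPM in control.

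Klf2, a transcription factor of leukocyte egress that is also on the list of genes induced by dissociation, was at 81.3, 70.8, 22.6 and 59.2 CPM and was lowest in the poly I:C library, with a ratio of 0.278 (0.206 to 0.372). Ahr, the ligand-activated aryl hydrocarbon receptor, was at 70.5, 60.6, 19.8 and 27.6 CPM. The nuclear pore protein Nup210 was at 53.3, 32.8, 9.4 and 17.5 CPM, a ratio of 0.176 (0.112 to 0.27), the lowest of the comparison. Zfp36l1, which destabilises AU-rich mRNAs, was at 358, 230.0, 128 and 103 CPM and stepped down from control through each treatment to the combination.

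Part of the interferon-stimulated genes was higher in both libraries with poly I:C. Of the type I interferon list, 11 of 36 compared genes were higher with poly I:C and 3 lower, at a median log2 ratio of 0.12, against 6.38% and 12.1% of all genes. In the combination 13 of 37 were higher and 2 lower, at a median of 0.27, against 7.13% and 9.27%. With phenformin alone 3 of 35 were higher and 0 lower, against 1.37% and 0.925%. Irf7, which amplifies type I interferon production, was at 210.0, 288, 528 and 816 CPM. That is a ratio of 2.52 (2.27 to 2.8) for poly I:C over control, 3.89 (3.5 to 4.32) for the combination over control and 1.54 (1.44 to 1.66) for the combination over poly I:C. Irf7 had a UMI in 57.5, 65, 93 and 94.8% of members. In T cells Irf7 was at 30, 25.9, 34.2 and 56.7 CPM, and in C1q macrophages at 234, 257, 321 and 494 CPM.

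Ifi44, an interferon-induced cytoplasmic protein, was at 25.7, 25.6, 99.9 and 112 CPM, a ratio of 3.88 (2.91 to 5.25) with poly I:C. Isg15, a ubiquitin-like modifier, was at 425, 550.4, 894 and 775 CPM, and Bst2, the membrane protein tetherin that holds budding virions, at 276, 313, 497 and 509 CPM. For these 3 genes the 2 libraries with poly I:C lay above the 2 without it. Oasl1, of the 2'-5'-oligoadenylate synthetase family, was at 37.9, 69.6, 124 and 111 CPM. Rsad2, the antiviral enzyme viperin, went against the list and was lowest in the combination, at 98.9, 126, 94.3 and 46.8 CPM and a ratio of 0.473 (0.363 to 0.612). Its control UMIs were unevenly spread, with 26.5% in 1 of 34 members that had any. The interferon gamma list had 3 of 19 genes higher and 2 lower with poly I:C, the latter near the 12.1% of all genes. Irf1, a transcription factor of the interferon gamma response, was lower with poly I:C, at 217, 197, 138 and 122 CPM.

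Isg15, Bst2 and Rsad2 start regions are shown because the first pair stood higher with poly I:C and the last did not, although each start region holds the core of an interferon-stimulated response element. The core was searched as GAAA, any 2 bases and GAAA again, on both strands in windows from 250 bases before to 50 after each RefSeq transcript start (GRCm38.p6, the C57BL/6J reference, not the FVB strain of the mice), overlapping matches included. Matches were found in 1131 of 32851 windows (3.44%), in 20 of 40 genes of the type I interferon list that have a window, and in 3 of the 11 genes of that list with a window that were called higher in the combination. The Rsad2 match lies on the opposite strand, so the printed letters are its reverse complement. Capitals mark the matches, which start 66 to 78 bases before the Isg15 start, 124 to 130 before that of Bst2 and 120 before that of Rsad2. A match is a description of these letters. Isg15 is annotated at chr4:156199424-156200818, Bst2 at chr8:71534255-71537456, both on the minus strand.
Isg15 (chr4:156200836-156200935, minus strand): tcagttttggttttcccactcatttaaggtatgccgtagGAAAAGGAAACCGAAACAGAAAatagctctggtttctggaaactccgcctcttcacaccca
Bst2 (chr8:71537545-71537644, minus strand): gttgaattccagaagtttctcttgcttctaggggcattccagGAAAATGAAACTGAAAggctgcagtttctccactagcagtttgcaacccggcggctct
Rsad2 (chr12:26456518-26456617, minus strand): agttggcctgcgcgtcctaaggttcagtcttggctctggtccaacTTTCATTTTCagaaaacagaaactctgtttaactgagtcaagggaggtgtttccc

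Members of the chemokine, glycolysis and cytokine lists were also called with poly I:C, against 6.38% of all genes higher and 12.1% lower. Of the monocyte chemokine list 8 of 14 were higher and 3 lower, of the glycolysis and hypoxia list 9 of 27 were higher and 0 lower, and of the inflammatory cytokine list 8 of 19 higher and 2 lower. Nos2, the inducible nitric oxide synthase, was at 41.6, 52, 241 and 90.2 CPM, a ratio of 5.81 (4.66 to 7.3), and was carried by 20 of 280 control and 106 of 301 poly I:C members. Inhba, a subunit of activin A, was at 26.6, 34.3, 186 and 53.6 CPM, a ratio of 6.96 (5.31 to 9.27). Nos2 and Inhba were both highest with poly I:C alone and lay between control and poly I:C in the combination. In C1q macrophages Nos2 was at 161, 192, 185 and 97.6 CPM and Inhba at 38.9, 59.8, 63.9 and 27.6. Clec4n, the fungal sensor dectin-2, was at 178, 316, 703 and 465 CPM, and Ecm1, a secreted matrix protein, at 57.8, 90.7, 243 and 165 CPM. Il1b, the cytokine interleukin 1 beta, was at 570.0, 554, 1064 and 675 CPM with a ratio of 1.87 (1.75 to 2), and Il1r2, its decoy receptor, at 152, 169.8, 508 and 253 CPM.

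Hilpda, a lipid droplet protein induced by low oxygen, was at 115, 120.5, 371 and 173 CPM, a ratio of 3.24 (2.82 to 3.73). The glycolytic enzyme genes Aldoa and Gapdh were at 676, 679, 1206 and 801 CPM and 1115, 1194, 2151 and 1552 CPM. Poly I:C alone was the highest library for Hilpda, Aldoa and Gapdh. Vegfa, the angiogenic growth factor, was at 127, 161, 192 and 80.1 CPM, highest with poly I:C and lowest in the combination. Hif1a, the oxygen-regulated transcription factor, was itself not higher, at 577, 664, 426 and 310.1 CPM. Hif1a was called lower in the combination, both over control and over phenformin. Fth1 and Ftl1, the ferritin chains that store iron, were at 13788, 16130.3, 31029 and 22546 CPM and 4448, 5186, 8019.5 and 8011 CPM, with poly I:C ratios of 2.25 (2.22 to 2.28) and 1.8 (1.76 to 1.85). T cells held 3068, 3074, 3519 and 3917 CPM of Fth1. Slc7a11, the cystine importer, was at 126, 136, 219 and 99.2 CPM, high with poly I:C alone.

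Among chemokines with neutrophil-attracting or monocyte-attracting roles, Cxcl1 and Ccl7 were led by few members and Cxcl2 was not. Cxcl1, a ligand of the neutrophil receptor CXCR2, was at 0.903, 8.28, 79 and 13 CPM, with only 2 control UMIs, and came from 31 of 301 poly I:C members, 1 of which held 39.6% of its UMIs. Ccl7, another CCR2 ligand, was at 11.7, 49.3, 115 and 26.5 CPM, and 1 of 24 poly I:C members held 49.7%. Ccl2 had a poly I:C ratio of 5.56 (4.31 to 7.28), or 4.61 without the richest member of each library. Cxcl2, a further CXCR2 ligand, was broadly carried and stood at 1629, 2148, 2727 and 1220.0 CPM, highest with poly I:C and lowest in the combination. Cxcl16, which binds CXCR6 on T cells, was at 272, 363, 608 and 427 CPM. The mast cell protease genes Tpsab1, Cma1 and Mcpt4, among the 4 highest ratios of this comparison, each came from 1 poly I:C member.

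Some receptors for antibodies were higher with poly I:C, while of the sensors of poly I:C itself Tlr3 was scarce and Ifih1 level. Of the Fc receptor list 5 of 10 were higher with poly I:C and 1 lower, against 6.38% and 12.1% of all genes. In the combination 3 were higher and 0 lower, against 7.13% and 9.27%. One of the genes called in both, Pilra, is an inhibitory receptor that does not bind antibody. Fcgr4, an activating receptor for IgG, was at 126, 210.1, 312 and 222 CPM, a poly I:C ratio of 2.48 (2.17 to 2.85). Fcer1g, the signalling chain that activating Fc receptors share, was at 1716, 2066, 3034 and 2772 CPM. The inhibitory receptor gene Fcgr2b was at 541, 757, 862 and 548 CPM, with the combination back at the control level. Tlr3 had 5.87, 1.88, 4.53 and 2.82 CPM, and Ifih1, the cytosolic sensor MDA5, had 77.7, 82.8, 81.8 and 84 CPM. Tlr3 lay under the minimum level for a comparison, and Ifih1 was called in none of the 5 comparisons. Of the pattern recognition list 1 of 14 genes was called higher with poly I:C, which was Clec4n, a share near the 6.38% of all genes.

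Calls of stress and division genes are given beside the shares of all genes. Of the integrated stress response list, which follows the transcription factor ATF4, 1 of 15 was higher with phenformin and 0 lower, against 1.37% and 0.925%. The higher gene was Mthfd2, of a folate enzyme. With poly I:C 2 of 13 were higher and 0 lower, against 6.38% and 12.1%. In the combination 2 of 14 were higher, Nupr1 and Herpud1, and 0 lower, against 7.13% and 9.27%. Atf4 itself was at 202, 224, 147 and 152 CPM. Genes that tissue dissociation is known to induce had a median log2 ratio of -0.15 with phenformin, -0.21 with poly I:C and -0.21 in the combination. With poly I:C, Zfp36 and Klf2 of the 16 compared genes of this list were lower and Jun higher, against 12.1% and 6.38% of all genes. Fos, also on this list, was at 469, 488, 371 and 460.0 CPM. Of the cell cycle list 8 genes could be compared in the combination, and 2 were higher and 0 lower, against 7.13% and 9.27% of all genes. Itgal, the integrin chain LFA-1 alpha, was at 229.9, 204, 178 and 152 CPM, lowest in the combination. T cells held 250.4, 213, 157 and 174 CPM of Itgal. Cd274, the checkpoint ligand PD-L1, was at 304, 269, 325 and 232 CPM.

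**Figure D4:**
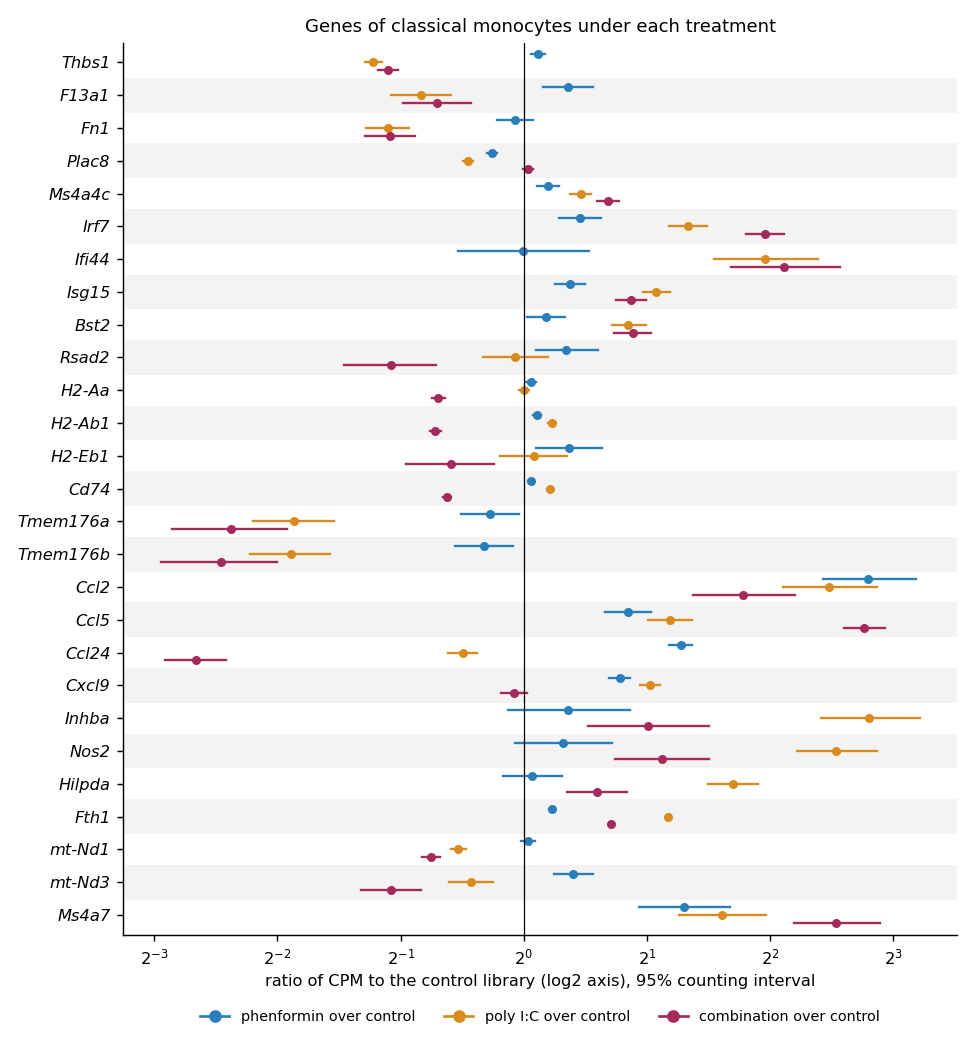
Ratio of CPM to the control library (x axis, log2 scale) for 27 genes (y axis) in classical monocytes, with 1 point for each of phenformin, poly I:C and combination and lines for 95% counting intervals. Thbs1, F13a1, Fn1 and both Tmem176 genes lie left of 1 in both libraries with poly I:C, MHC class II genes left of 1 in the combination, and Nos2, Inhba and Hilpda lie farther right with poly I:C alone than with phenformin or in the combination.

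Antigen presentation genes of class II were lower in the combination, while with either single treatment none was called lower. Of 11 compared genes of the MHC class II list, 5 were lower and 0 higher over control, at a median log2 ratio of -0.33 (-0.40 to -0.24 over the alternatives), against 9.27% and 7.13% of all genes. The same list had 0 higher and 0 lower with phenformin, and 2 higher and 0 lower with poly I:C, those being the costimulatory genes Cd86 and Cd40. H2-Ab1 was at 6276, 6766, 7355 and 3817 CPM and H2-Aa, the other chain of the same molecule, at 4315, 4496, 4322 and 2667 CPM. Their ratios in the combination were 0.608 (0.591 to 0.626) and 0.618 (0.597 to 0.64). Cd74, the invariant chain that guards the peptide groove, was at 11278, 11759, 13039 and 7317 CPM, a ratio of 0.649 (0.635 to 0.663). H2-Eb1, the beta chain of the other class II molecule, was at 87.6, 113, 92.6 and 58.1 CPM, and H2-DMb2, part of the peptide-loading helper, at 75, 90, 71 and 47.9 CPM. The combination was the lowest library for all of these. Non-classical monocytes showed H2-Ab1 at 5796, 7100.0, 5869 and 1730.0 CPM, a combination ratio of 0.299 (0.284 to 0.313), and C1q macrophages at 9779, 10604, 9990.2 and 10154 CPM, a ratio of 1.04 (1.03 to 1.05). Whether the ratio differs between these populations could not be tested with 1 library each.

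Clec10a and Mgl2, a pair of galactose-binding lectins of dendritic-like monocytes, were low with poly I:C as well. Clec10a was at 371, 423, 163 and 147 CPM and Mgl2 at 54.7, 107, 29.9 and 14.1 CPM, both highest with phenformin. Members with a Cd209a UMI were also fewer in both libraries with poly I:C, as given above, and without members that held a Cd209a or Flt3 UMI the combination log2 ratio was -0.71 for H2-Ab1, -0.68 for H2-Aa and -0.62 for Cd74. The poly I:C ratio of Mgl2 lost its direction among members with no C1q UMI, at a log2 ratio of 0.06. MHC class I genes did not go the same way: 5 of 19 were higher in the combination and 0 lower, against 7.13% and 9.27% of all genes. H2-T22, a nonclassical class I gene, was at 39.7, 39.5, 54.7 and 111 CPM, a ratio of 2.78 (2.15 to 3.62), and H2-Q7, which is close in sequence to other H2-Q genes, at 256, 222, 390.2 and 431 CPM. In T cells H2-T22 was at 75.9, 79.8, 106 and 128 CPM.

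The start regions of H2-Aa and H2-Eb1 are shown because these genes moved together and class II genes are known to share promoter boxes. The Y box was searched as CTGATTGG on both strands in the same windows. It was found in 1346 of 32851 windows (4.1%), and in 3 of 9 genes of the class II list that have a window, which were H2-Aa, H2-Eb1 and H2-Oa. Its match, in capitals, starts 51 bases before the H2-Aa start and 62 before that of H2-Eb1. H2-Aa is annotated at chr17:34282744-34287823 on the minus strand and H2-Eb1 at chr17:34305867-34316674 on the plus strand.
H2-Aa (chr17:34287821-34287920, minus strand): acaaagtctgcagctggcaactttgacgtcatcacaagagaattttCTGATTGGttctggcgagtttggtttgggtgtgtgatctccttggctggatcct
H2-Eb1 (chr17:34305759-34305858, plus strand): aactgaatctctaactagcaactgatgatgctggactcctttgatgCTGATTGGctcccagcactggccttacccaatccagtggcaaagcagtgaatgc

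Another pair of neighbours moved in parallel across all 4 libraries. Tmem176a was at 135, 111, 36.9 and 25.9 CPM and Tmem176b at 139.6, 112, 37.6 and 25.4 CPM; both encode membrane proteins known from immature dendritic cells. For poly I:C over control their ratios were 0.274 (0.218 to 0.343) and 0.269 (0.214 to 0.336). For the combination over control they were 0.193 (0.138 to 0.263) and 0.182 (0.13 to 0.249). In T cells they were at 26.6, 16.2, 16.4 and 20.1 CPM and 26.6, 11.8, 21 and 18.6 CPM. In the combination the T cell levels lay near those of the members, so the low values there cannot be told from free RNA. With poly I:C alone the members held 36.9 and 37.6 CPM against 16.4 and 21 in T cells. The part of free RNA in these levels was not tested. C1q macrophages held 168, 114, 91 and 117 CPM of Tmem176a. The genes lie head to head and overlap: Tmem176a at chr6:48840919-48847071 on the plus strand and Tmem176b at chr6:48833818-48841496 on the minus strand. The window of a Tmem176a start, which spans starts of both genes, is shown because both genes moved, and it reads as follows. Whether the counting kept the strand is not given in the sources used here, so reads in the overlap could be shared.
Tmem176a (chr6:48841233-48841532, plus strand): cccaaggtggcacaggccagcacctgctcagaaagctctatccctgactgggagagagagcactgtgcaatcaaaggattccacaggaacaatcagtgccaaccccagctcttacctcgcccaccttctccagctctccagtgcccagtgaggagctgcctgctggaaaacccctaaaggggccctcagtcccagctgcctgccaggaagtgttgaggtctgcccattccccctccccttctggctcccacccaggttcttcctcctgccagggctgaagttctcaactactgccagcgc

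Part of the mitochondrially encoded transcripts was lower in the combination, whereas the nuclear genes of complex I were level. Of 11 compared mitochondrial transcripts 6 were lower and 0 higher, against 9.27% and 7.13% of all genes. Their median log2 ratio was -0.63 (-0.84 to -0.55 over the alternatives), and all 6 lower ones encode complex I subunits. The mt-Nd1 transcript was at 2146, 2201, 1485 and 1272 CPM, mt-Nd3 at 238, 314, 177 and 113 CPM and mt-Nd4l at 118, 129, 82.2 and 55.8 CPM. The combination was the lowest library for each, and the poly I:C library the second lowest. No transcript of another complex was called over control. Of these, mt-Co1, of complex IV, was at 5988, 5515, 4635 and 4681 CPM and mt-Cytb, of complex III, at 2021, 2004, 1941 and 1681 CPM. Over phenformin, mt-Atp8 of complex V was called lower too, at 44.3, 52.3, 39 and 25.4 CPM, while over control it lay under the minimum level. In T cells mt-Nd1 was at 2599, 2757, 2021 and 2128 CPM, also lower in both libraries with poly I:C. Of 36 nuclear complex I genes 1 was higher, Ndufa11, and 0 lower in the combination, at a median of 0.11, against 7.13% and 9.27% of all genes. The median mitochondrial share per member was 2.72, 2.47, 2.19 and 1.76%, and cells at 20% or more had been left out.

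Many lysosomal, lipid and macrophage genes were higher in both libraries with poly I:C. Of the lipid and phagolysosome list 10 of 20 were higher with poly I:C and 11 of 20 in the combination, at median log2 ratios of 0.54 and 0.69, against 6.38% and 7.13% of all genes. With poly I:C 1 was lower, Psap, and in the combination 0. With phenformin alone 4 of 21 were already higher, Apoe, Fabp5, Ctsl and Axl, against 1.37% of all genes. Of the macrophage list 8 of 14 were higher in the combination and 2 lower, against 7.13% and 9.27% of all genes. Ctsd, the lysosomal protease cathepsin D, was at 294, 288, 449 and 669 CPM, a combination ratio of 2.27 (2.06 to 2.51), and Lgmn, the asparaginyl endopeptidase legumain, at 431, 428, 538 and 772 CPM. Apoe, a lipid carrier, was at 582, 873, 1102 and 1081 CPM, which stayed far below the 3560.1, 6566, 15499 and 10012 CPM of C1q macrophages. Ms4a7 had a combination ratio of 5.79 (4.57 to 7.4). C1qa, which the rule caps, was at 33.9, 28.2, 43.2 and 53.6 CPM in the members. Acp5, an acid phosphatase of macrophages and osteoclasts, was at 30.7, 48.6, 84.6 and 121 CPM, and Ckb, a creatine kinase, at 20.3, 35, 24 and 88 CPM.

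Ccl5, an attractant of T cells, was the broadly carried gene with the largest combination ratio. It was at 156, 281, 356 and 1063 CPM, a ratio of 6.8 (6.06 to 7.65), and had a UMI in 27.1, 30.6, 43.9 and 59.4% of members. T cells held 989, 1774, 4757 and 3572 CPM of Ccl5, more than the members in every library, and C1q macrophages held 642, 977, 1728 and 3697 CPM. The part of free Ccl5 RNA in the members' level was not tested.

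**Figure D5:**
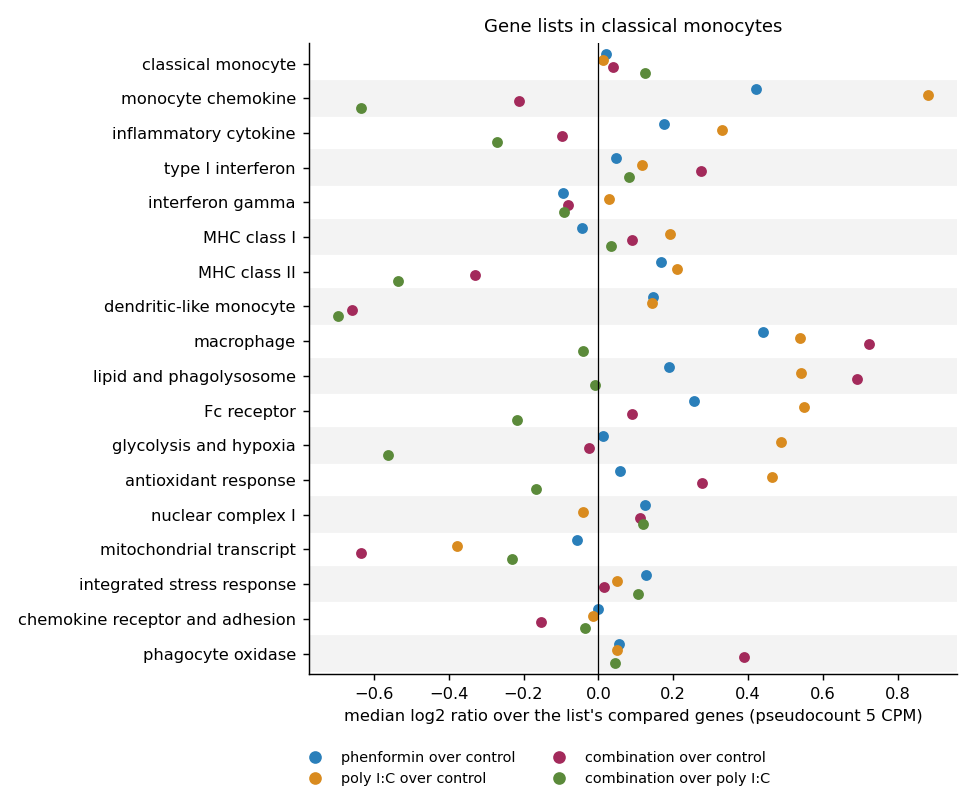
Median log2 ratio (x axis, 5 CPM added) over the compared genes of 18 lists (y axis) in classical monocytes, with 1 point for each of the 3 comparisons over control and for the combination over poly I:C. MHC class II and mitochondrial transcripts lie left of 0 in the combination, monocyte chemokines and glycolysis and hypoxia right of 0 with poly I:C and left of 0 in the combination over poly I:C.

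Set against poly I:C alone, the combination held lower levels of many chemokine and glycolysis genes. Of the inflammatory cytokine list 3 of 18 were lower, Il1b, Il1rn and Vegfa, and 0 higher. Of 3067 genes compared, 39 were 2-fold higher (1.27%) and 25 lower (0.815%), and the 1.5-fold call took 3.49% and 3.72%; under TMM the split was 32 and 39. Of the glycolysis and hypoxia list 14 of 27 were lower and 0 higher, at a median log2 ratio of -0.56 (-0.65 to -0.50 over the alternatives). Hk2, the first enzyme of glycolysis, was at 76.8, 91.1, 109.7 and 53 CPM, a ratio of 0.483 (0.38 to 0.61) to poly I:C, and Slc2a1, the glucose transporter GLUT1, was at 154, 155, 197 and 117 CPM. Mif, a cytokine gene that low oxygen induces, was at 449, 556, 979.9 and 523 CPM. The combination lay near control for Mif and below it for Hk2 and Slc2a1. Of the monocyte chemokine list 8 of 14 were lower and 3 higher, the latter being Ccl5, Ccl8 and Cxcl10. Cxcl2 had a ratio of 0.447 (0.426 to 0.469) and Nos2 of 0.374 (0.313 to 0.445). Pdcd1lg2, the checkpoint ligand PD-L2, was at 71.8, 81.3, 80.8 and 29.9 CPM, lower in the combination than in any other library. Irf7 and Dhx58 were the 2 genes of the type I interferon list called higher over poly I:C.

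Set against phenformin alone, the combination had higher interferon-stimulated genes and lower class II and chemokine genes. Of 3157 genes, 46 were 2-fold higher (1.46%) and 41 lower (1.3%), and the 1.5-fold call took 5.61% and 6.59%. Of the type I interferon list 10 of 39 were higher and 3 lower, and of the monocyte chemokine list 8 of 12 were lower and 2 higher. Ccl24 had the lowest ratio, 0.0653 (0.0552 to 0.0769). Prnp, the prion protein gene, was at 60.1, 55.3, 22.3 and 12.4 CPM and Tle3, a transcriptional corepressor, at 119, 118, 69.3 and 42.3 CPM, both lowest in the combination. Slpi, a secreted protease inhibitor, was at 154, 127, 126 and 330.4 CPM, with 27% of the combination UMIs in 1 member.

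Measured beyond the sum of both single treatments on the log2 scale, chemokines lay lowest. The value is the log2 level of the combination minus those of poly I:C and phenformin plus that of control, with 5 CPM added. It was -3.63 for Ccl7, -3.40 for Cxcl1, -3.37 for Ccl24, -3.28 for Ccl2 and -2.40 for Ccl4. Each of these was higher with phenformin alone than in control and lower in the combination than with poly I:C. Inhba had -2.01, and Edn1, the vasoconstrictor endothelin 1, had -2.02. Cxcl1 rests on 2 control UMIs. As given above, a single poly I:C member held a large part of that library's UMIs for Cxcl1 and for Ccl7. For Ccl4 a single phenformin member did so to a lesser degree. The highest values belonged to Ngp, Camp and Retnlg, and rested on few members.

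Granule and calprotectin genes of neutrophils led the combination over control, and most of their UMIs lay in a few members. S100a8 and S100a9, which together form the calcium-binding protein calprotectin, were at 52.8, 61.7, 180.3 and 1655 CPM and 86.3, 52.3, 204 and 2066 CPM. Members with at least 20 UMIs of both genes together, a limit set after the data were seen, numbered 3, 3, 9 and 4, and held 88, 88.1, 88 and 99.2% of these UMIs. Without them the summed level was 16.9, 13.7, 47.8 and 28.8 CPM, against 139, 114, 385 and 3720.4 CPM with them. Each of these rich members also had a UMI of another neutrophil gene (Retnlg, Camp, Ngp, Ltf, Cxcr2, Mmp8 or Lcn2). Ngp, a granule protein of immature neutrophils, had its 284.7 CPM in 3 combination members and none elsewhere, and 1 of these members held 97.6% of the UMIs. Without members that held a mast cell, plasma cell, keratin or granule UMI, the log2 ratio of S100a9 in the combination over control was -2.39 in place of 4.50, and that of S100a8 -0.83 in place of 4.84. Saa3, an acute phase protein, was more widely carried, by 12, 18, 42 and 39 members, and stood at 13.6, 42.5, 65.4 and 203 CPM. The plasma cell genes Jchain and Mzb1 came from 3 combination members each, and the mast cell protease genes Mcpt1 and Mcpt2 had 96.9 and 95.2% of their combination UMIs in 1 member.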

How the data were processed

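For each of 4 libraries of 10x 3' single-cell RNA-seq the authors deposited unnormalised UMI counts by gene and barcode. Per the file headers and the submitters' processing notes, these came from Cell Ranger 3.1.0 and the build GRCm38 (mm10). The sources used here do not give the annotation release or later filters. Of 30819 barcodes 26435 passed the limits of 200 genes and 20% mitochondrial UMIs, and members were chosen by the rule in the report. The members and gene lists were chosen with earlier results of these data known. Member counts were summed per library and scaled to CPM. Ratios carry exact conditional binomial, levels exact Poisson and shares exact Clopper-Pearson intervals at 95%, for counting error only. With 1 library per treatment no test was made. No doublet caller was run, and members holding UMIs of other classes were left out as an alternative. The ratios and their intervals were checked on simulated Poisson counts, which hold no spread between cells or mice. Named genes were the 12 highest and 12 lowest per comparison on log2(CPM + 5), up to 4 per list, all members of the chemokine and classical monocyte lists and 8 at either end of the values beyond the sum of both single treatments, with rule genes left out. Other genes, among them those ranked by being carried by at least 20% of members, were chosen after their values were seen. TMM factors came from edgeR 4.0.16, the rest from Python 3.11.15 with scipy 1.17.1. Results for some genes are not reported here.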

Additional observations from a re-analysis of the deposited data

Results flagged for a closer look

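For 18 genes of classical monocytes the 1.5-fold call with phenformin went one way without poly I:C and the opposite way with it. Each group is 1 library, so this difference was not tested. Over all compared genes the call took 1.37% higher and 0.925% lower without poly I:C, and 3.49% and 3.72% with it. Genes such as Inhba and Nos2, whose ratio turned but was not called without poly I:C, are not counted. The value given is the log2 level of the combination minus those of poly I:C and phenformin plus that of control. Among chemokines it was -3.28 for Ccl2, -3.37 for Ccl24, -2.40 for Ccl4, -1.87 for Cxcl9 and 1.56 for Ccl8. The phenformin log2 ratio of Ccl8 without poly I:C changed sign under 2 alternatives, to 0.42 with cells thinned before the rule and to 0.059 with no C1q UMI allowed, and that of Axl under 1, to -0.020 with cells thinned. Ccl2 had phenformin ratios of 6.95 (5.4 to 9.07) without and 0.617 (0.518 to 0.731) with poly I:C, and Ccl24 of 2.42 (2.26 to 2.58) without and 0.223 (0.187 to 0.264) with it. Among receptors and channels it was -1.31 for Axl, -1.40 for Clec4n, -2.06 for Il7r, -1.44 for the endocytic adaptor gene Dab2 and -1.32 for Kcnn4. Clec4n had ratios of 1.77 (1.57 to 2) without and 0.662 (0.61 to 0.718) with poly I:C. For other genes it was -1.66 for the arginine transporter Slc7a2, -1.79 for Rgcc, -1.37 for Pcyt1a, 1.18 for Fam129a and 1.49 for Tmpo. Krt14, Krt5 and S100a9 had 4.35, 4.07 and 3.98, and most of their combination UMIs lay in a few members each.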

How the results depend on the processing

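No paired analysis was possible because each treatment had 1 library, and for the same reason no library could be left out in turn. Over 18 alternatives, 2 of them added after the data were seen, 9403 of 11515 log2 ratios of named genes stayed within the main counting interval and 65 changed sign. Of 2199 list medians 7 changed sign. The combination had the lowest share of classical monocytes under every alternative run on the shares. The MHC class II and mitochondrial medians of the combination kept their sign under every alternative run on the lists. Depth limits genes under 50 CPM, and intervals cover counting error and not the spread between mice. The cause of each change below was not tested. With at least 1 Ly6c2 UMI, the share was 5.33% in control and 6.35% in phenformin. In the same setting, 2-fold higher genes numbered 8 for phenformin over control, and 2-fold lower genes numbered 0 for phenformin over control. Spp1 turned to 0.44 in combination over poly I:C. Krt14, Krt5 and Lgals7 turned to 1.85, 0.52 and 0.84 in phenformin over control. With at least 4 Ly6c2 UMIs, the share was 3.59% in control and 4.51% in phenformin. In the same setting, 2-fold higher genes numbered 8 for phenformin over control, and 2-fold lower genes numbered 3 for phenformin over control. Hspa1b turned to -0.70 in combination over phenformin. With cells thinned to 3000 UMIs before the rule, the share was 3.93% in control, 4.45% in phenformin and 3.78% in poly I:C. In the same setting, 2-fold higher genes numbered 24 for phenformin over control, 98 for combination over control and 77 for combination over phenformin, and 2-fold lower genes numbered 22 for phenformin over control, 137 for poly I:C over control, 116 for combination over control, 68 for combination over poly I:C and 107 for combination over phenformin. Herpud1 and Ltf turned to -0.24 and -0.44 in combination over control. Jchain turned to -0.74 in combination over phenformin. Cma1, Jchain, Krt14, Krt5, Plet1 and Tpsab1 turned to 2.57, -1.54, -0.15, -1.26, 0.83 and 4.38 in combination over poly I:C. Axl, Ccl8, Isg20, Lgals7 and Ptgs2 turned to -0.020, 0.42, -0.021, 1.23 and 0.21 in phenformin over control. Ccl8, Krt5 and Mcpt4 turned to 0.38, 1.58 and -0.78 in poly I:C over control. With no C1q UMI allowed, the share was 2.66% in control, 3.15% in phenformin, 2.13% in poly I:C and 1.08% in combination. In the same setting, 2-fold higher genes numbered 9 for phenformin over control, and 2-fold lower genes numbered 85 for poly I:C over control, 72 for combination over control and 46 for combination over poly I:C. Jchain, Krt14, Ltf, Mcpt1, Mcpt2 and Mzb1 turned to -0.43, -2.43, -0.23, -0.025, -0.25 and -0.23 in combination over control. Atf3 and Jchain turned to 0.097 and -0.49 in combination over phenformin. Cxcl3, Jchain, Krt14, Krt5 and Mzb1 turned to 0.096, -0.83, -2.28, -1.26 and -0.21 in combination over poly I:C. Ccl8 turned to 0.059 in phenformin over control. Cma1, Mcpt4 and Mgl2 turned to -0.23, -0.43 and 0.059 in poly I:C over control. Under TMM scaling, 2-fold lower genes numbered 33 for poly I:C over control and 39 for combination over poly I:C. As means of single-cell CPM, 2-fold lower genes numbered 2 for phenformin over control. With members thinned to 2000 UMIs, 2-fold higher genes numbered 17 for phenformin over control, and 2-fold lower genes numbered 97 for poly I:C over control, 87 for combination over control, 46 for combination over poly I:C and 80 for combination over phenformin. Tpsab1 turned to 0.20 in combination over poly I:C. With no minimum level, 2-fold higher genes numbered 20 for phenformin over control, 143 for poly I:C over control, 154 for combination over control, 113 for combination over poly I:C and 206 for combination over phenformin, and 2-fold lower genes numbered 102 for phenformin over control, 154 for poly I:C over control, 124 for combination over control, 58 for combination over poly I:C and 87 for combination over phenformin. The neutrophil-like monocyte list median turned to -0.040 in poly I:C over control. With 20 CPM added, 2-fold higher genes numbered 3 for phenformin over control, and 2-fold lower genes numbered 24 for poly I:C over control, 18 for combination over control and 23 for combination over phenformin. Of myeloid cells, the share was 11% in control, 11.3% in phenformin, 11.1% in poly I:C and 6.95% in combination. Without members holding a Cd209a or Flt3 UMI, Hspa1b turned to -0.15 in combination over phenformin. Without members holding a UMI of another class, the share was 4.66% in phenformin, 3.67% in poly I:C and 2.23% in combination. In the same setting, 2-fold lower genes numbered 2 for phenformin over control. Ptgs2 turned to 0.066 in combination over control. The S100 and acute phase list median, Krt5, Lcn2 and S100a8 turned to -0.23, -0.26, -0.43 and -1.58 in combination over poly I:C. Lgals7 and S100a9 turned to 0.64 and 0.030 in phenformin over control. Without members holding a mast cell, plasma cell, keratin or granule UMI, the share was 3.74% in control, 3.31% in poly I:C and 2.07% in combination. In the same setting, 2-fold higher genes numbered 30 for combination over phenformin, and 2-fold lower genes numbered 1 for phenformin over control. The neutrophil-like monocyte list median, S100a8 and S100a9 turned to -0.42, -0.83 and -2.39 in combination over control. The neutrophil list median, neutrophil-like monocyte list median, S100a8 and S100a9 turned to -0.97, -0.76, -1.27 and -2.37 in combination over phenformin. The S100 and acute phase list median, neutrophil list median, Lcn2, S100a8 and S100a9 turned to -0.27, -1.44, -0.53, -2.07 and -2.47 in combination over poly I:C. Lgals7 turned to 0.65 in phenformin over control. Without members over 2 times the median UMI count, 2-fold lower genes numbered 0 for phenformin over control. Krt14 turned to -0.33 in combination over control. Krt14 and Krt5 turned to -0.88 and -0.57 in combination over poly I:C. Lgals7 turned to 0.60 in phenformin over control. Krt5 turned to 0.26 in poly I:C over control. Without the richest member of each library per gene, 2-fold higher genes numbered 22 for combination over poly I:C and 26 for combination over phenformin, and 2-fold lower genes numbered 0 for phenformin over control. Krt14 turned to -0.44 in combination over control. Krt14 and Tpsab1 turned to -0.26 and 0.15 in combination over poly I:C. Cma1 and Tpsab1 turned to -0.24 and -0.24 in poly I:C over control.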
